A study of Homo sapiens with 8 samples.

Results

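The 9 genes EDN1, ECE1, LPAR1, LPAR2, LPAR3, F3, TFPI, F2R and F2RL1 encode the peptide endothelin-1 and the enzyme that matures it, 3 receptors for lysophosphatidic acid (LPA), tissue factor and its inhibitor, and 2 protease-activated receptors. They are 9 of the 17649 genes in a deposited RNA-Seq table of MDA-MB-231 cells and were chosen by name, with the control and CML values of these same libraries already known. The differences between the groups are therefore given for these 9 genes as a description, with no p-value. Where one of them is counted among the genes that a test over the whole table called, the count is descriptive too.

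MDA-MB-231 cells are a long-established line from a human breast cancer, negative for the estrogen receptor and mesenchymal in phenotype. Both groups were cultures of this line in low glucose medium, with 4 control libraries that received the vehicle PBS and 4 libraries from cells given 1 μM N-(1-carboxymethyl)-L-lysine (CML) for 48 hours. CML is an advanced glycation end product, a modified lysine that arises from reactions with sugars. The model is a single line at 1 dose and 1 time. The unit is CPM, in which each library is scaled to about the same total so that libraries of different depth compare, and the reads behind each library, estimated from the smallest step of its values, numbered 16161802 to 18954733 with a median of 16647444. One read was worth 0.0535 to 0.0622 CPM.

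Most markers of the line were at the level its mesenchymal phenotype implies. VIM, the mesenchymal filament vimentin, stood at 4068 ± 39.1 CPM in control and 4150 ± 100.4 CPM in CML libraries (SD, n = 4 each). CDH1, the epithelial cadherin, stood at 0.740 ± 0.168 and 0.567 ± 0.234 CPM, and the progesterone receptor gene PGR averaged 0.0285 CPM in controls. EPCAM, an epithelial adhesion gene also listed as low in the line, had the highest CPM of that list, a mean of 14.5 over the 8 libraries. The epithelial markers were therefore not all near 0. ESR1 was not analysed here. In 2 of the line's markers the groups did not overlap, namely CAV1, the membrane scaffold caveolin-1, at 146 ± 6.09 and 159 ± 5.45 CPM, and ERBB3, a receptor tyrosine kinase, at 7.26 ± 0.177 and 6.43 ± 0.202 CPM, with adjusted p-values of 0.458 and 0.422 by limma. Among the limma fits CAV1 passed the threshold of 0.3 only with the replicate block, a correction for transcript GC content and length, or both. The adjusted p-values were 0.224, 0.112 and 0.0418. ERBB3 passed it only without the variance trend, at 0.152. With median centring CAV1 and ERBB3 stood at 0.589 and 0.641, and with quantile normalization at 0.518 and 0.415. Over all genes, every CML library was above every control library in 2.5% and below in 1.27%, so nothing is read from these markers. Of 6 markers of endothelial cells, which make endothelin-1 in vessels, 4 were measured, and they summed to 31.2 to 33.8 CPM in control and 29.3 to 34.4 CPM in CML libraries. Most of that sum was KDR, a receptor for vascular endothelial growth factor, at a mean of 28.0 CPM over the 8 libraries. The 5 fibroblast markers summed to 11.1 to 12.3 and 11.5 to 14.4 CPM, mostly the collagen gene COL1A1 at a mean of 10.8 CPM. The 3 measured leukocyte markers summed to 160 to 182 and 154 to 174 CPM, mostly the lysosomal gene CD68 at a mean of 169 CPM, while PTPRC, which marks leukocytes, averaged 0.475 and 0.280 CPM. The part of these marker levels in the results was not tested.

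Endothelin-1 is a short vasoconstrictor peptide that is cut from a longer precursor by endothelin-converting enzyme and acts on a pair of G protein-coupled receptors. LPA is a bioactive lipid, made outside the cell mainly by the enzyme autotaxin, and its receptors couple to several G proteins and promote migration and contraction. Tissue factor, the product of F3, starts coagulation by binding factor VII, and the coagulation proteases that follow can cleave and activate the protease-activated receptors. Receptors of these 3 systems signal in part through Gq to phospholipase C and through the G12 family to RhoA and its kinases.

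The promoters of EDN1 and F3 are shown because EDN1 had the largest difference between the groups among the 9 genes and because F3 encodes the initiator of the coagulation branch. Both sequences are from RefSeq on GRCh38.p14, cover the 250 bases before the start of the MANE Select transcript, the agreed reference transcript of a gene, and read 5′ to 3′ on the strand of the gene. In EDN1 (chr6:12290111-12290360, plus strand) the capitals mark, from left to right, GATAA on the opposite strand at -136, ACGTG on the opposite strand at -123 and the TATA box letters TATAAA at -31. In F3 (chr1:94541760-94542009, minus strand) the capitals mark the AP-1 letters TGANTCA at -223 and -210. EDN1 has 3 annotated starts in the promoter table, and the one used lies inside the span of the whole gene given further on.
EDN1: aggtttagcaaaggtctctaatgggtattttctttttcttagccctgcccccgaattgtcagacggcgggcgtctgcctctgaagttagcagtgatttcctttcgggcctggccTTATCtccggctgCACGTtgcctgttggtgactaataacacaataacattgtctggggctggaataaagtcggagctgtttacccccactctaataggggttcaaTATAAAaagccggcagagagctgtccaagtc
F3: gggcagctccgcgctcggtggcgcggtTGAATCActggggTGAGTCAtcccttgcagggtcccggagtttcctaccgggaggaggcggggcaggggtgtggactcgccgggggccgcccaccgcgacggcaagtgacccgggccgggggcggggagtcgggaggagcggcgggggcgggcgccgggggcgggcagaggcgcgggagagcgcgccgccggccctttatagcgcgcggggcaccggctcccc

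Letters were searched on both strands in the 250 bases before the MANE Select start of each gene, and a match describes the sequence only. TGANTCA occurs in 6.57% of 35116 such promoters, GATAA in 20.4%, ACGTG, the core of the hypoxia response element, in 18.5% and TATAAA in 10.7%. The EDN1 window held 0 exact matches to TGANTCA, and variants of these letters were not searched. The F3 window also held TATAAA on the opposite strand, at -28, outside the capitals. Among the other genes with a promoter entry, TGANTCA was found in LPAR2 at -246, ACGTG in LPAR1 at -115 and the TEAD letters GGAATG, present in 11.9% of promoters, in F2RL1 at -194. The NF-kB motif in its loosest form, GGG and CC with 5 bases of any kind between them, is present in 54.4% of promoters and had 1 match in EDN1, at -146, 3 in F3, 6 each in ECE1 and LPAR2, 5 each in LPAR3 and F2RL1, 2 in TFPI and 0 in LPAR1.

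Before any comparison of the groups, the 9 genes differed widely in level. Because longer transcripts yield more reads, the 9 genes were compared with each other only per kilobase of the MANE Select transcript. Where the highest genes of a list are named, the order is by CPM, which is not adjusted for transcript length. On this CPM per kilobase scale F2RL1 was highest in control libraries at 94.7 ± 3.50 (SD, n = 4), followed by ECE1 at 63.8 ± 2.89. F3 at 38.4 ± 1.47 and LPAR1 at 37.9 ± 1.33 had overlapping ranges over the 4 control libraries and could not be ordered. TFPI followed at 28.9 ± 1.41, F2R at 25.3 ± 2.01, EDN1 at 8.02 ± 0.234 and LPAR2 at 3.50 ± 0.604, with LPAR3 at 0.0508 ± 0.0244. Apart from F3 and LPAR1, the ranges of neighbours in this order did not overlap. The points of the plot of control levels per kilobase place these values among the other genes of each system.

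**Figure D1:**
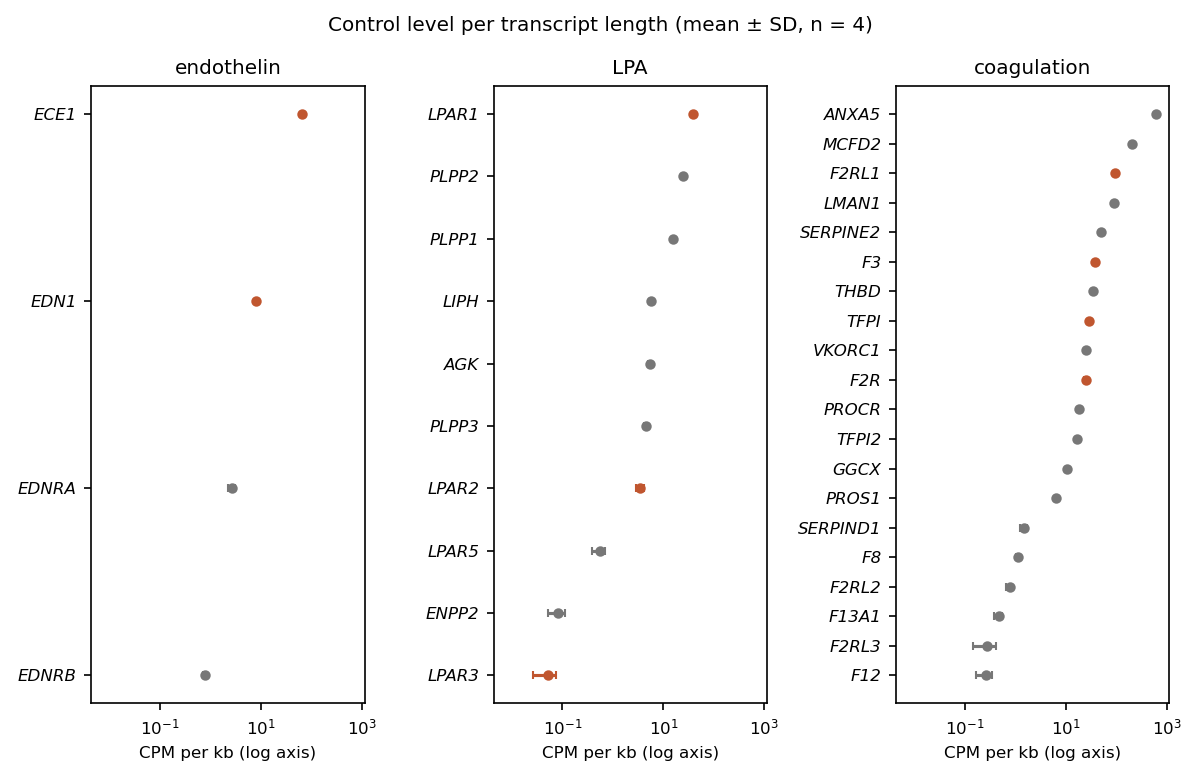
Control level of genes of the endothelin, LPA and coagulation systems, in CPM per kilobase of transcript on a log axis, as mean ± SD of 4 control libraries. The 9 genes are in red and the other listed genes of the same systems in grey, and F2RL1 at 94.7 and LPAR3 at 0.0508 are the highest and lowest of the 9.

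EDN1, the gene of endothelin-1, was higher in every CML library than in any control library. Its level was 15.9, 16.8, 15.9 and 16.6 CPM in control replicates 1 to 4 and 21.5, 19.6, 18.4 and 20.7 CPM in CML replicates 1 to 4, from 263 to 291 reads and 302 to 371 reads. The means were 16.3 ± 0.476 and 20.1 ± 1.34 CPM (SD, n = 4 each), a difference of 23.0%. On the log2(CPM + 1) scale used for all differences here, which understates the change of low genes, the log2 fold change was 0.28 with a standard error of 0.051. The spread among control libraries, a coefficient of variation of 2.92%, was under the 5.68% that counting error alone would give at this depth, and that among CML libraries was 6.67%. Of 13047 genes that averaged 1 CPM or more, 143 had a larger log2 fold change. In bulk RNA a change in the number of cells that express a gene and a change in RNA per cell cannot be told apart.

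ECE1, which encodes endothelin-converting enzyme 1, was level between the groups to within its spread. It stood at 339, 313, 331 and 308 CPM in control and 318, 332, 333 and 303 CPM in CML libraries, and the groups overlapped throughout. The means were 323 ± 14.7 and 321 ± 13.9 CPM, with a log2 fold change of -0.01 (SE 0.043). At 4874 to 6200 reads a library, the counting error of ECE1 was 1.35%, against coefficients of variation of 4.54% and 4.31%. EDN1 lies on chromosome 6 (chr6:12230516-12297194, plus strand) and ECE1 on chromosome 1 (chr1:21217250-21345504, minus strand). In the annotation an exon of ECE1 overlaps the opposite-strand gene ECE1-AS1, and since strand use in counting was not given, reads from that gene could not be separated.

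**Figure D2:**
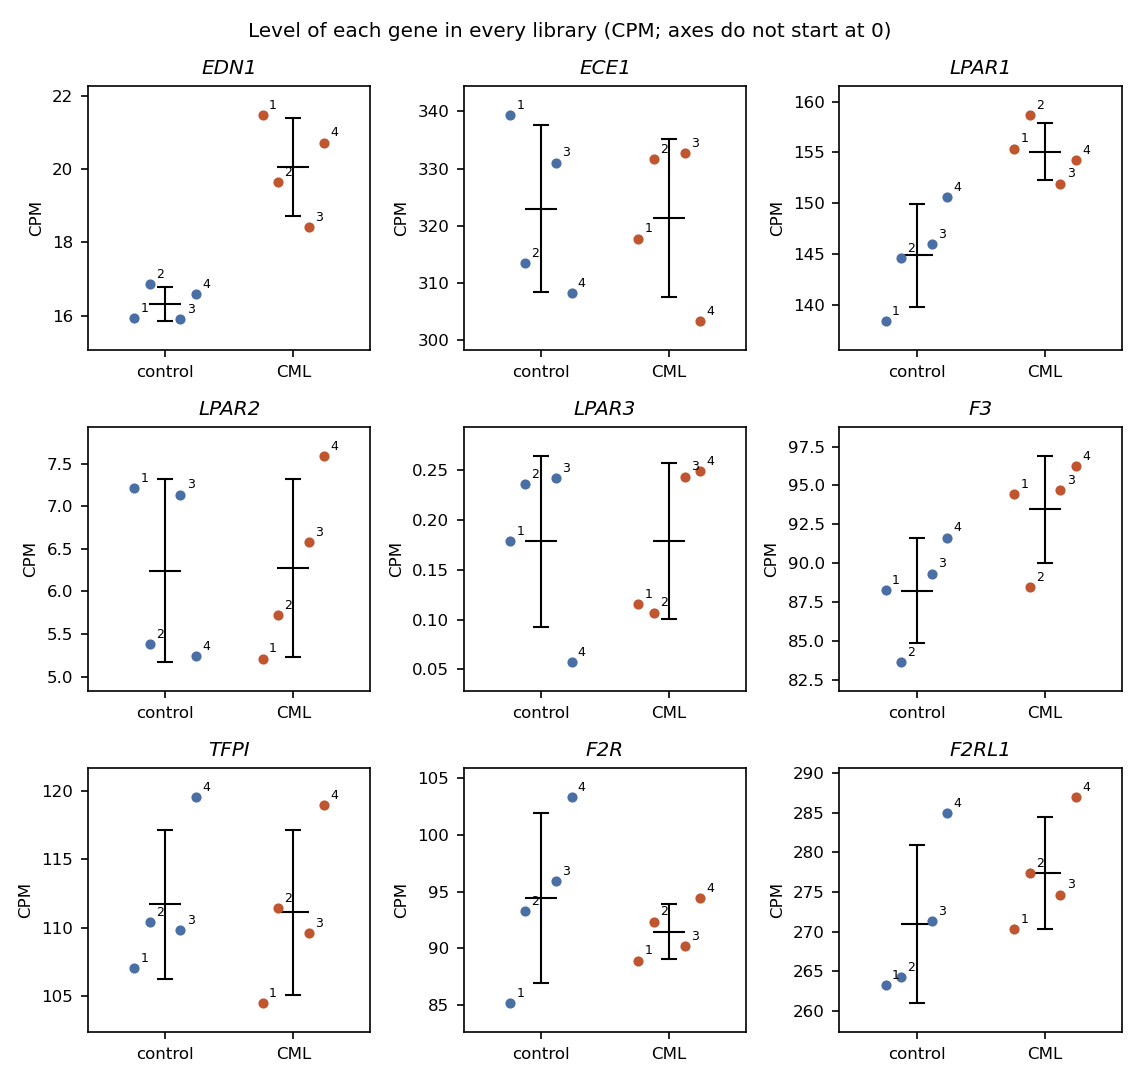
CPM of each of the 9 genes in the 4 control (blue) and 4 CML (red) libraries, numbered by replicate, with the group mean and SD in black; the vertical axes do not start at 0. Only EDN1 and LPAR1 have all CML points above all control points.

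Of the 3 LPA receptor genes, LPAR1 was the one with separated groups. LPAR1, the receptor of the family most widely expressed in mesenchymal cells, stood at 138.3, 144.5, 145.9 and 150.6 CPM in control and 155.4, 158.7, 151.9 and 154.3 CPM in CML libraries. The gap between the groups was narrow, with control replicate 4 just under CML replicate 3. The means were 145 ± 5.07 and 155 ± 2.81 CPM, a difference of 7.04% and a log2 fold change of 0.10 (SE 0.027). In the list of 13047 genes, 1703 had a larger log2 fold change than LPAR1.

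LPAR2, another receptor of the family, varied widely among libraries of the same group. Its level was 7.21, 5.38, 7.14 and 5.24 CPM in control and 5.21, 5.72, 6.58 and 7.59 CPM in CML libraries, from 90 to 122 reads. The groups covered nearly the same range, with means of 6.24 ± 1.08 and 6.28 ± 1.04 CPM and a log2 fold change of 0.01 (SE 0.14). The coefficients of variation of LPAR2, 17.3% and 16.6%, were above the 9.71% of counting error. LPAR3 was at 1 to 4 reads in each library, 0.0570 to 0.242 CPM in control and 0.107 to 0.249 CPM in CML libraries, around the 0.161 to 0.187 CPM that 3 reads are worth. No difference in LPAR3 was detectable at this depth. LPAR1 lies at chr9:110873263-111038998, LPAR2 at chr19:19623655-19628220 and LPAR3 at chr1:84811602-84893206, all on the minus strand.

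F3, the gene of tissue factor, had overlapping groups with the higher mean in CML libraries. It stood at 88.2, 83.6, 89.3 and 91.6 CPM in control and 94.4, 88.4, 94.7 and 96.3 CPM in CML libraries. CML replicate 2 was the only CML library inside the control range, and the other 3 were above it. The means were 88.2 ± 3.38 and 93.5 ± 3.44 CPM, a difference of 5.96% and a log2 fold change of 0.08 (SE 0.036). TFPI, which encodes the inhibitor that shuts down the complex of tissue factor and factor VII, stood at 107, 110, 110 and 120 CPM in control and 104, 111, 110 and 119 CPM in CML libraries. In both groups replicate 4 was the highest, and the log2 fold change between the means of 112 ± 5.44 and 111 ± 6.02 CPM was -0.01 (SE 0.048). F3 lies at chr1:94529173-94541759 and TFPI at chr2:187464230-187554435, both on the minus strand, and an exon of TFPI overlaps the opposite-strand gene CALCRL-AS1.

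The protease-activated receptor genes F2R and F2RL1 lie near each other on chromosome 5, at chr5:76716126-76735770 and chr5:76819030-76835315. F2R encodes the thrombin receptor PAR1 and F2RL1 encodes PAR2, which is cut by trypsin-like proteases and by the complex of tissue factor and factor VIIa but not by thrombin. F2R stood at 85.1, 93.3, 95.9 and 103 CPM in control and 88.9, 92.3, 90.2 and 94.4 CPM in CML libraries. The CML range lay inside the control range, the means were 94.4 ± 7.50 and 91.5 ± 2.41 CPM, and the log2 fold change was -0.04 (SE 0.056). F2RL1 stood at 263, 264, 271 and 285 CPM in control and 270, 277, 275 and 287 CPM in CML libraries. The means were 271 and 277 CPM with coefficients of variation of 3.69% and 2.54% and a log2 fold change of 0.03 (SE 0.030). Control replicate 4 was above 3 of the 4 CML libraries. Both genes overlap an opposite-strand gene in the annotation.

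**Figure D3:**
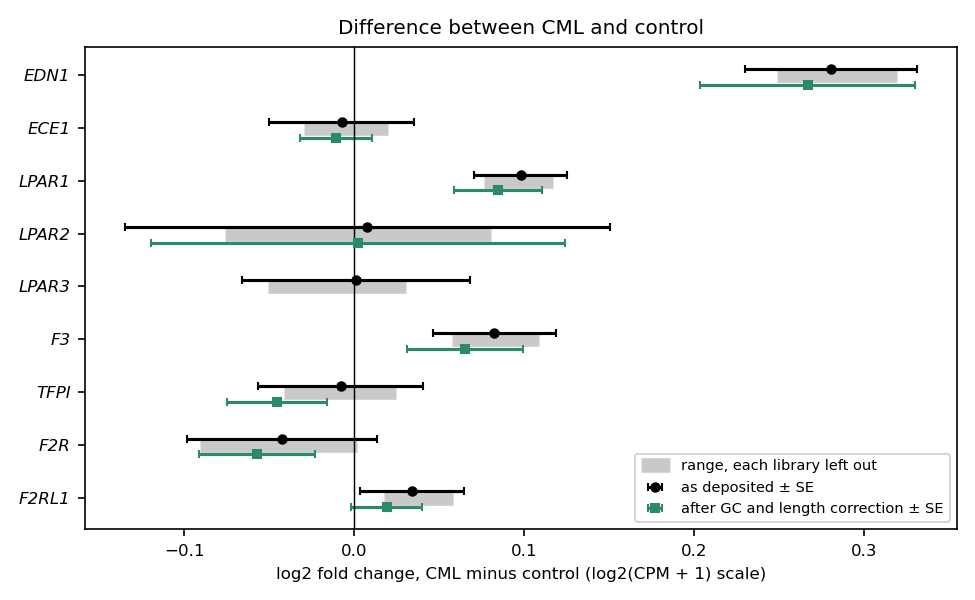
Log2 fold change of CML against control for each of the 9 genes on the log2(CPM + 1) scale, with standard error, as deposited (black circles) and after removal of each library's dependence on transcript GC content and length (green squares; not computed for LPAR3, which is under 1 CPM). Grey bars give the range when each library was left out in turn, all on the deposited scaling. For EDN1 it runs from 0.25 to 0.32, and for LPAR1, F3 and F2RL1 it also stays above 0. With quantile normalization F2RL1 was at 0.0039 (SE 0.026).

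Across all 17649 genes, limma on log2(CPM + 1) with Benjamini-Hochberg adjustment called 158 genes at a false discovery rate of 0.3, the cutoff with which the study picked transcripts of this experiment for display. This was 0.895% of the genes tested, 119 higher and 39 lower with CML. The balance of directions depended on the scaling, with 46 higher and 27 lower after median centring and 90 higher and 54 lower after quantile normalization. At a false discovery rate of 0.05 limma called 0 genes, with 1352 genes at an unadjusted p under 0.05, whereas it called 36 with genes under 1 CPM left out, 172 after the GC and length correction and 205 with that correction and the replicate block. Without 1 library the count ran from 20 (without CML replicate 2) to 690 (without control replicate 4). Of the 9 genes, 1, EDN1, was among the 158, and it was among the genes called without control replicate 4 or CML replicate 3 but not without any one of the other 6 libraries, nor with libraries centred on their median or with the replicate block. It was called in the other 7 alternatives, both fits with the GC and length correction included. LPAR1 was called as well without control replicate 4 and in both of those corrected fits. At the same threshold of 0.3 the corrected fits called 859 genes without the replicate block and 902 with it, of 12928 tested. F3 was the 1 gene of the 9 called with the replicate block alone, which called 189 of 17649 genes. Every CML library was above every control library in 2 of the 9, EDN1 and LPAR1, and in 442 genes or 2.5% of all, and 0 of the 9 had every CML library below every control library, as 225 genes or 1.27% of all did. Since the 9 genes were chosen with this contrast known, nothing is read from these counts. The libraries are labelled as replicates without saying that they came from separate cultures, so the p-values measure the spread between these samples only.

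A second pattern ran across the groups and not between them. Replicate 4 was the highest control library in 5 of the 9 genes and the highest CML library in 6, and it was the highest of both groups in 4, namely TFPI, F2R, F2RL1 and F3. ECE1, with 58.4% GC in its transcript, was lowest in replicate 4 of both groups, and TFPI, with 34.7% GC, was highest in it. LPAR2, with the highest GC of the 9 at 61.0%, was lowest in replicate 4 of the controls but highest in replicate 4 of the CML libraries, so the members did not order by GC content throughout. The same libraries stood apart across all genes, where the first principal component, holding 27.0% of the variance, was 109 for control replicate 4 and 87.0 for CML replicate 4, against -101 for control replicate 1 and values from -33.8 to -7.07 for the other 5 libraries.

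After each library's dependence on transcript GC content and length was removed, a step chosen after the data were seen, the spread within groups fell for 7 of the 8 genes that averaged 1 CPM or more. On the log2 scale the residual SD went from 0.0451 to 0.0146 for F2RL1, from 0.0639 to 0.0225 for ECE1 and from 0.0729 to 0.0355 for TFPI. It was 0.0711 and 0.0693 for EDN1 and 0.210 and 0.215 for LPAR2, the lowest of the 8 in level. The corrected log2 fold changes were 0.27 (SE 0.063) for EDN1, 0.08 (SE 0.026) for LPAR1, 0.07 (SE 0.034) for F3, -0.06 (SE 0.034) for F2R and -0.05 (SE 0.030) for TFPI. As deposited the log2 fold change of EDN1 was 0.28 (SE 0.051). The part of GC content and length in the differences was not tested.

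**Figure D4:**
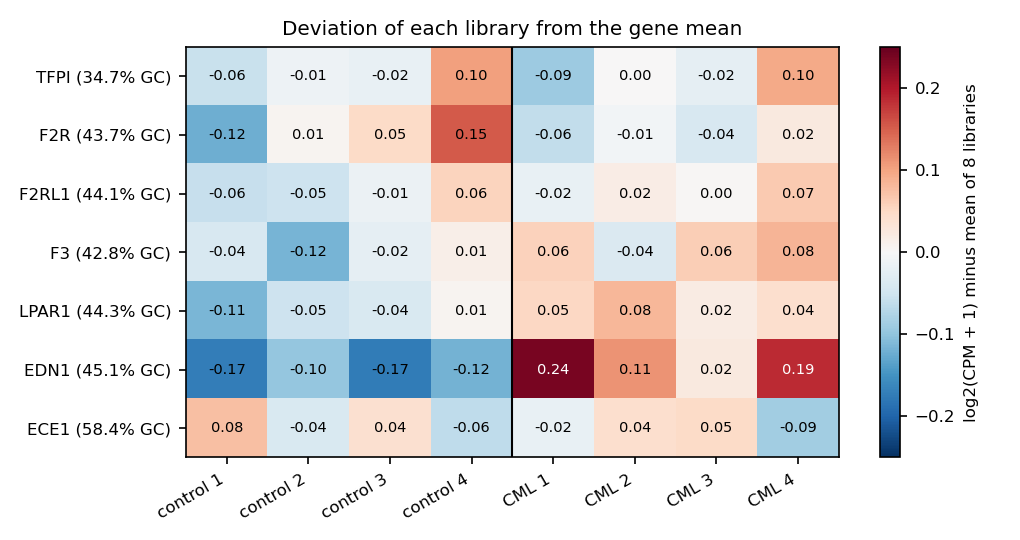
Deviation of each library from the gene's mean over 8 libraries, in log2(CPM + 1), for the 7 genes over 10 CPM, with transcript GC content in parentheses and columns grouped as control 1 to 4 and CML 1 to 4. TFPI, F2R, F2RL1 and F3 are highest in replicate 4 of each group and ECE1 lowest, whereas EDN1 is below its mean in all control and above it in all CML libraries.

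The genes whose levels followed EDN1 most closely over the 8 libraries were ZCCHC3 (Pearson r 0.970), UBE2F (0.964), WTAP (0.963), MNAT1 (0.963) and PCNX2 (0.960), among 10768 genes that averaged 5 CPM or more. UBE2F, an enzyme that conjugates the ubiquitin-like protein NEDD8, stood at 18.8 to 19.7 CPM in control and 21.4 to 23.1 CPM in CML libraries. WTAP, a subunit of the RNA methyltransferase that makes N6-methyladenosine, stood at 85.1 to 88.3 and 89.4 to 93.2 CPM. These correlations describe 8 libraries that fall into the same groups and share their scaling, and they carry no test.

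The rest of the endothelin system was little represented. Of 6 further genes on the list 3 were measured and 2 averaged 1 CPM or more. Of the 3, 0 were called, beside 0.895% of all genes. EDNRA, the receptor that mediates contraction, stood at 9.66, 9.05, 12.8 and 10.5 CPM in control and 10.02, 11.2, 9.51 and 11.1 CPM in CML libraries. EDNRB, the other receptor, averaged 3.39 ± 0.330 and 3.50 ± 0.317 CPM, and MME, the peptidase neprilysin that degrades endothelin-1, was at 0 reads in 6 of the 8 libraries. The smallest adjusted p of the list by limma was 0.970. EDN2, EDN3 and ECE2 were not analysed here.

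In the LPA system, 9 of 11 further genes were measured and 6 averaged 1 CPM or more. Of the 9, 0 were called, beside 0.895% of all genes. The gene with the smallest p was PLPP3, a phosphatase that degrades LPA at the cell surface, at 13.5, 13.5, 16.0 and 15.6 CPM in control and 17.7, 16.4, 15.8 and 16.4 CPM in CML libraries. CML replicate 3 fell inside the control range, the log2 fold change was 0.17 (SE 0.068), and the adjusted p by limma was 0.620. The related phosphatase genes PLPP2, at 31.1 and 31.0 CPM, and PLPP1, at 24.2 and 24.4 CPM, had nearly equal means, as did LIPH, a phospholipase that makes LPA from phosphatidic acid, at 22.6 and 23.0 CPM. ENPP2, which encodes autotaxin, averaged 0.253 and 0.215 CPM, and of the other receptor genes LPAR5 averaged 1.46 and 1.19 CPM while LPAR4 and LPAR6 averaged under 0.1 CPM. The list's median log2 fold change was 0.01, beside 0.01 for all genes of at least 1 CPM.

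In the coagulation system, 18 of 24 further genes were measured and 14 averaged 1 CPM or more. Of the 18, 0 were called, beside 0.895% of all genes. The smallest adjusted p by limma was 0.656, for F12, the contact factor, at 0.533 ± 0.190 and 0.861 ± 0.245 CPM. TFPI2, a relative of TFPI that inhibits other serine proteases, averaged 37.1 ± 1.70 and 39.0 ± 0.984 CPM with an adjusted p of 0.733. The genes highest in CPM were not called. They were ANXA5, at 1007 ± 30.5 and 1033 ± 19.6 CPM, MCFD2, at 860 and 854 CPM, and LMAN1, at 446 and 443 CPM. ANXA5 is a protein that binds the procoagulant lipid phosphatidylserine. MCFD2 and LMAN1 together carry factors V and VIII out of the endoplasmic reticulum. The other protease-activated receptor genes were low, F2RL2 at 2.64 and 3.04 CPM and F2RL3 at 0.937 and 0.858 CPM. PROC, the gene of the anticoagulant protein C, was at 0 reads in all 8 libraries, which allows at most 0.161 to 0.187 CPM. The genes of the plasma factors F2, F7, F9, F10 and F11 were not analysed here.

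Among 24 G protein and effector genes that act directly downstream of these receptors, all 24 were measured and 22 averaged 1 CPM or more. Of the 24, 0 were called, beside 0.895% of all genes. RHOA averaged 539 ± 12.8 and 552 ± 6.95 CPM, GNAI2, an inhibitory G protein subunit, 364 and 361 CPM, and ARHGEF12, an exchange factor that links the G12 family to RhoA, 345 and 348 CPM. GNA13, the G12 family subunit, averaged 199 ± 14.6 and 210 ± 8.39 CPM and GNA12 179 ± 5.30 and 185 ± 5.54 CPM. The smallest adjusted p was 0.690, for ARRB1, the receptor adaptor beta-arrestin 1, at 42.7 ± 2.35 and 39.6 ± 1.77 CPM. Of the 22 genes 16 had a log2 fold change above 0, with a median of 0.03 beside 0.01 for all genes of at least 1 CPM, and 12 were above 0 with libraries centred on their median. In none of the 4 lists did any gene have groups that did not overlap. Over all genes, every CML library was above every control library in 2.5% and below in 1.27%, so nothing is read from this.

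**Figure D5:**
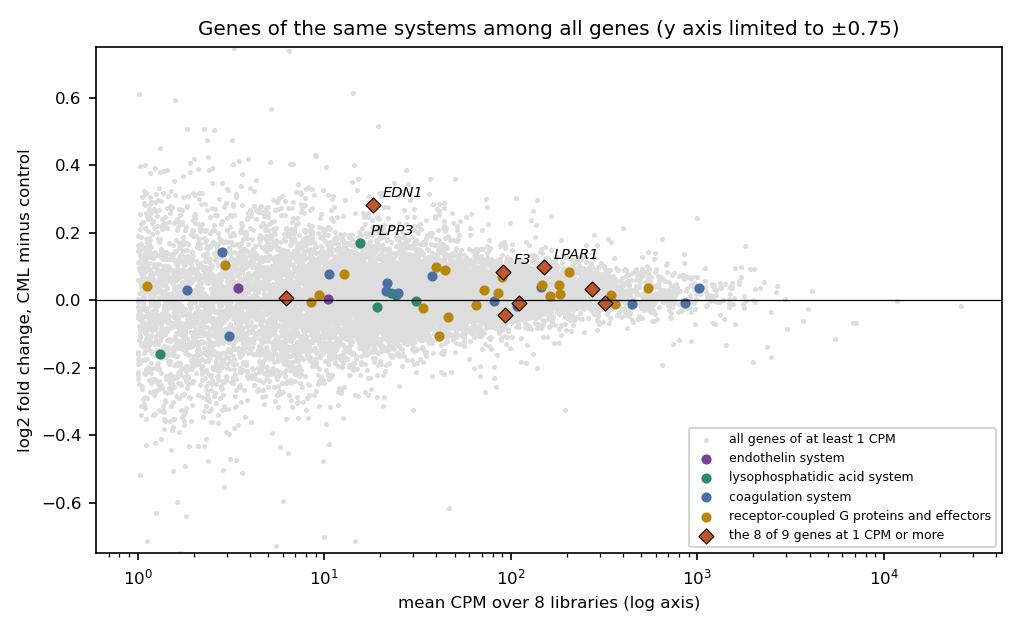
Log2 fold change of CML against control by mean CPM over 8 libraries (log axis) for all genes of at least 1 CPM (grey), the 4 lists of related genes (coloured circles) and 8 of the 9 genes (diamonds). The vertical axis is limited to ±0.75 and leaves out 20 of 13047 genes. List genes under 1 CPM are not drawn, and EDN1 lies higher than every list gene that is. F12, not drawn, had a log2 fold change of 0.279 beside 0.281 for EDN1. With quantile normalization F12 was at 0.297 and EDN1 at 0.264.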

How the data were processed

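RNA from 4 control and 4 CML libraries of MDA-MB-231 cells, isolated with a column kit, was sequenced on an Illumina instrument, which the labels name as both NextSeq and HiSeq. The authors deposited CPM values, 1 column per library, and their processing notes name edgeR and hg38. The aligner, the annotation and the strand setting for this experiment were not given in the sources used here. The columns summed to 986730 to 1014124. Between 88.0% and 89.0% of the values above 0 were whole reads (tolerance 0.1), so no count test was run.

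Rows with the same symbol were averaged (17681 rows, 32 repeated symbols, 17649 genes). Groups came from the sample titles. limma 3.58.1 in R 4.3.3 was run on log2(CPM + 1) with a variance trend and Benjamini-Hochberg adjustment over all genes, and was tested on simulated data. The 9 genes and the lists of related genes were chosen with earlier results of these data known, and 1 gene of these lists is not reported here. Named from each list were genes called, the 4 with the smallest p, the 3 highest in mean CPM and those at 0. For EDN1 the 5 most correlated genes were named. ENPP2, F2RL3, CAV1 and ERBB3 were named after their values were seen. Transcript length and GC content are of the MANE Select transcript in GENCODE on GRCh37, gene positions and promoters of RefSeq on GRCh38.p14, with a promoter entry for all genes but F2R. As alternatives, the fit was repeated with 0.1 as pseudocount, without genes averaging under 1 CPM, without averaging rows, with median centring, quantile normalization, without the trend, with a replicate block and without each library, and, chosen after the data were seen, with a GC and length correction with and without the block. Intervals from reads cover counting error only. Figures were drawn with matplotlib 3.10.9.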

Additional observations from a re-analysis of the deposited data

How the results depend on the processing

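The count of called genes, 158, changed by over 1.5 times in 11 of the 17 alternatives. It was 73 with libraries centred on their median. After the GC and length correction it was 859 without the replicate block and 902 with it, of 12928 genes tested. It ran from 20 without CML replicate 2 to 690 without control replicate 4. It was within 1.5 times the count under the other 6 alternatives. At a false discovery rate of 0.05 the count was 0 in the reported fit, 7 with a pseudocount of 0.1, 1 with quantile normalization, 5 without the trend and up to 12 with a library left out. The causes were not tested. EDN1 was not among the genes called with libraries centred, with the replicate block, or without any one of control replicates 1, 2 and 3 or CML replicates 1, 2 and 4. LPAR1 was called beside EDN1 without control replicate 4 and in both fits with the GC and length correction. The log2 fold change of EDN1 lay between 0.25 and 0.32 in all 17 alternatives, that of LPAR1 between 0.07 and 0.12 and that of F3 between 0.06 and 0.11. ECE1, LPAR2, LPAR3, F2R and TFPI changed sign in at least 1 alternative, within their spread. The 4 lists of related genes had 0 genes called in all 17. Over all genes the reported fit called 0.895%, so nothing is read from this.

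Same-numbered libraries correlated at 0.199, -0.0303, -0.0645 and 0.334 in their deviations from the group means. Their mean was 0.110, beside -0.0362 for libraries of different number. These values do not settle whether the numbers pair the samples, so the replicate block was kept as an alternative only. With the replicate block 189 genes were called, with F3 and not EDN1 among the 9. Depth limits LPAR3 and genes at a few reads in the lists.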
